A study of Mus musculus with 2 samples.

Results

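The nuclear genes of the mitochondrial respiratory chain and ATP synthase were followed through the cells of newborn mouse skin. Members were the genes whose symbol starts with Ndufa, Ndufb, Ndufc, Ndufs, Ndufv, Sdha, Sdhb, Sdhc, Sdhd, Uqcr, Cyc1, Cox4, Cox5, Cox6, Cox7, Cox8 or Atp5, leaving out symbols with a hyphen, the Ndufaf assembly factors and Atp5if1. This gave 97 of the 56694 genes counted, with 96 symbols, since Atp5o is carried by 2 identifiers. Of these, 43 were assigned by symbol prefix to complex I, 8 to complex II (4 of them the assembly factors Sdhaf1 to Sdhaf4, which the prefixes catch), 9 to complex III, 19 to complex IV and 18 to ATP synthase. In the annotation of the same genome build (GRCm39) the 97 genes lie on 19 chromosomes and 93 are protein-coding. The others, Ndufs6b, Ndufb4c, Ndufa11b and Cox6c2, are annotated as processed pseudogenes.

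Complexes I and II pass electrons from NADH and succinate to ubiquinone, complex III passes them on to cytochrome c, and complex IV reduces oxygen. The proton gradient that complexes I, III and IV build drives ATP synthase. Most subunits are encoded in the nucleus and imported, whereas a small set of core subunits is encoded by mitochondrial DNA, except in complex II, which is wholly nuclear.

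The cells came from back skin epidermal whole mounts of mice at postnatal day 2, with 1 single-cell RNA library from Gli2EKO mice and 1 from control mice. In Gli2EKO animals (K14Cre;Gli2 fl/fl, on a C57BL/6N background) the transcription factor Gli2, which acts downstream of Hedgehog signals, is deleted by a Cre recombinase under the keratin 14 promoter, which is active in keratinocytes. The control library is labelled WT and, by the study's methods, such controls are floxed littermates without Cre. The whole mounts kept some dermal cells, in which the keratin 14 promoter is not active. With 1 library per genotype no test was possible, so every difference below is a difference between those libraries; genotype, litter and library handling cannot be told apart.

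After filtering, 4456 control and 3093 Gli2EKO cells were kept, with medians of 11806 and 11909 unique molecular identifiers (UMIs), 3901 and 3801 genes and 2.50% and 2.47% mitochondrial UMIs. The libraries shared 0 barcodes. Cell classes were rebuilt from clusters and marker genes, with the members themselves kept out of the clustering genes. A level is given as CPM, for which the UMIs were pooled within a class and scaled to 1000000 UMIs of that class, and a change as the log2 ratio of Gli2EKO over control CPM with its 95% interval in brackets. These intervals cover counting error only. A gene was compared in a class where the libraries together held 100 UMIs or more of it, and its level is not set against that of another gene, since UMIs at transcript ends carry no length scaling. In what follows, a gene is said to be past the fold when its log2 ratio is at least 0.25 in size. Gli2 itself was at 83.6 CPM in control and 85.1 CPM in Gli2EKO keratinocytes. The assay counts the polyA end and the sources used here do not state which exons are deleted, so Gli2 does not check the labels.

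Respiratory chain transcripts were more abundant in Gli2EKO keratinocytes, across nearly the whole set. Summed over members, the level was 23366 CPM in control and 27967 CPM in Gli2EKO keratinocytes, a 1.20-fold difference (log2 ratio 0.26 [0.26, 0.26]). Of 97 members, 86 could be compared over the 3324 control and 2302 Gli2EKO keratinocytes. Of these 86 members, 80 had a log2 ratio above 0, against 33.1% of all genes compared. The median was 0.24, with quartiles at 0.19 and 0.30, while the median of all 13720 genes compared was -0.14. Past the fold, 39 members were higher and 1 was lower. Among all genes 10.7% were past the fold higher and 34.1% lower.

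Because members are abundant transcripts, the comparison was repeated, as a choice made after the values were seen, among genes with at least 10000 UMIs. There 36 of 66 members were past the fold higher, against 12.7% of the 1382 genes at that level. With at least 2000 UMIs it was 39 of 81 members, against 7.69% of 6255 genes. The centre of the scale mattered as well: under TMM factors, which moved the median of all genes from -0.14 to -0.00, 73 of the 86 members were past the fold higher and 0 lower, against 20.7% higher and 19.4% lower of all genes.

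The difference was also present cell by cell. The share of a cell's UMIs that came from members had a median of 2.24% in control and 2.65% in Gli2EKO keratinocytes, with quartiles of 1.70% and 2.69% against 2.12% and 3.16%. The distributions of the libraries overlapped widely. Some cells in both libraries held very little RNA of members: in cells in which ribosomal protein genes gave under 5% of the UMIs, the median member share was 0.475%, against 2.51% in the other keratinocytes. Such cells made up 13.3% of control and 9.51% of Gli2EKO keratinocytes, and without them the median log2 ratio was 0.22, with 30 members past the fold higher. The share of all genes past the fold without such cells is not given. A list of cell division genes had a median of -0.11 in keratinocytes, near the -0.14 of all genes. Of its 12 genes, 0 were past the fold higher and 4 lower, against 10.7% and 34.1% of all genes. Yet a smaller share of Gli2EKO keratinocytes held any UMI of 5 division genes, 65.5% against 78.8% in control. In keratinocytes without such a UMI the members' median was 0.31. The part of these values in the members' difference was not tested.

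The size of the difference depended on the cell class. In the sebaceous gland-like cells (44 control, 26 Gli2EKO), which make lipid, the members together were at 37533 CPM in control and 49814 CPM in Gli2EKO cells, the highest levels of any class compared. Their median log2 ratio was 0.42, and 59 of 77 members were past the fold higher against 24.0% of all genes. In upper follicle-like cells (427 and 280), led by Aldh3a1, Sostdc1 and Lgr6, the median was 0.36 and 63 of 84 members were past the fold higher and 0 lower, against 15.0% of all genes higher. Both clusters joined in that class showed it, with medians of 0.35 and 0.37.

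Inner root sheath-like cells (233 and 106) had a median of 0.30, with 53 of 80 members past the fold higher against 16.6% of all genes. In cells named from outer root sheath and stem cell markers (328 and 180) the median was 0.28, with 50 of 81 members against 15.9%. Without the 1 Gli2EKO cell of that class that held 1802 UMIs of the muscle actin Acta1, the median was 0.24 and 36 members were past the fold higher. The share of all genes past the fold without that cell is not given. The interfollicular epidermis differed less. Basal-like cells (351 and 557) had a median of 0.21, with 28 of 85 members against 14.2%, and suprabasal-like cells (219 and 310) a median of 0.20, with 25 of 84 against 10.6%.

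Matrix/progenitor-like cells (536 and 230), the dividing compartment at the base of the follicle, had a median of 0.17 and 15 of 84 members past the fold higher, close to the 13.8% of all genes. Above 0 were 75 of the 84, against 42.0% of all genes. The larger cluster of this class was led by Dcn, a fibroblast gene, beside Krt28, Msx1 and Shh. The smaller, of low depth (median 5436 UMIs), had a median of -0.14 over 20 members. The 3 clusters led by Tagln were left unnamed and together (793 and 434 cells) had a median of 0.19, with 19 of 84 members against 11.0%. Companion-like cells (176 and 96) had a median of 0.10, and their 5 of 77 members past the fold higher lay below the 14.5% of all genes. Above 0 were 57 of the 77, against 43.5% of all genes.

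A single keratinocyte class had a median below 0. Lineage-like cells (217 and 83), led by S100a3 and the hair keratin Krt35, were a single cluster that a clustering at resolution 0.8 divided into one led by Gpnmb, with lineage markers, and one led by S100a3 and Krt35, with hair shaft markers. They had a median of -0.04, with 6 of 77 members past the fold higher and 8 lower. Among all genes of that class 20.1% were higher and 22.1% lower. The summed level was 19649 CPM in control and 19405 CPM in Gli2EKO cells, with a log2 ratio of -0.02 [-0.05, 0.01], while the typical interval of a single member was ±0.28. Median depth in this class was 9421 UMIs per cell in control and 7151 in Gli2EKO. Depth went the other way in sebaceous gland-like cells (19068 and 28646), upper follicle-like cells (12827 and 14827), melanocyte-like cells (7715 and 10025) and immune-like cells (9886 and 12618). With each cell thinned to 5000 UMIs, and shallower cells left out, the members' median was 0.11 in lineage-like cells, 0.48 in sebaceous gland-like, 0.36 in upper follicle-like, 0.32 in melanocyte-like and 0.36 in immune-like cells. In lineage-like cells this left out 37 control and 27 Gli2EKO cells and kept 180 and 56, so depth and the choice of cells changed together. Over 12 other settings the lineage-like median ran from -0.09 to 0.11.

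**Figure D1:**
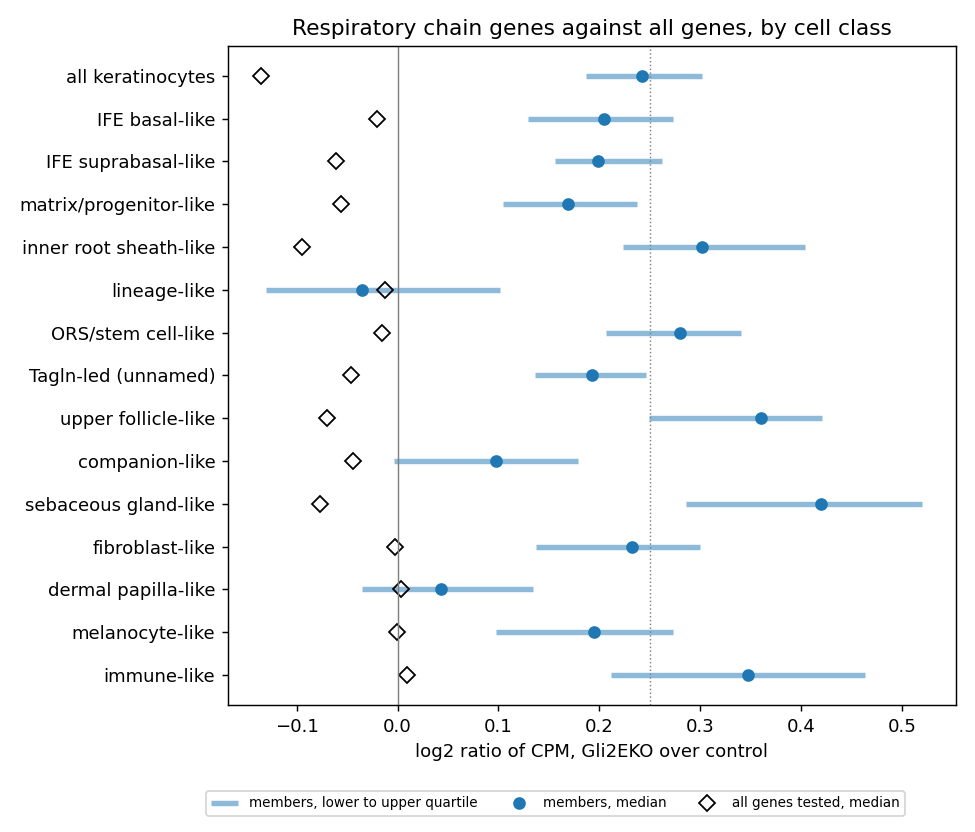
Median log2 ratio (Gli2EKO over control CPM, x axis) of the members in each cell class (filled circles, bars from lower to upper quartile) beside the median of all genes compared in that class (open diamonds); the dotted line marks 0.25. The members lie to the right of all genes in 14 of the 15 rows, from 0.42 in sebaceous gland-like cells to 0.04 in dermal papilla-like cells, and slightly to the left, at -0.04, in lineage-like cells.

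Dermal cells, in which K14Cre is not active, showed the difference as well, but not in each type. In fibroblast-like cells (651 and 494) the summed level was 17160 CPM in control and 20592 CPM in Gli2EKO, the median was 0.23, and 37 of 86 members were past the fold higher and 0 lower. All genes of that class were past the fold in 15.5% (higher) and 17.8% (lower). Pooled over the same cells, cell division genes were higher, with a median of 0.46 and 9 of 12 past the fold. Yet a smaller share of Gli2EKO cells held any UMI of 5 division genes, 43.1% against 58.2% in control. The part of cell division in the members' difference was not tested. The 3 fibroblast clusters had medians of 0.27, 0.19 and 0.26. Dermal papilla-like cells (193 and 150), the signalling mesenchyme under the follicle, were at 15362 and 15913 CPM, the lowest levels of the classes compared, with a median of 0.04. There, 4 of 79 members were past the fold higher and 5 lower, against 18.2% and 19.6% of all genes.

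The median share per dermal papilla-like cell was 1.57% in control and 1.55% in Gli2EKO, whereas per fibroblast-like cell it was 1.66% and 2.04%. Melanocyte-like cells (104 and 67) had a median of 0.19, with 24 of 77 members past the fold higher against 22.6% of all genes. Immune-like cells (95 and 45) had a median of 0.35, with 49 of 75 members against 28.1%. Whether the difference between classes exceeds what separate mice would show was not tested.

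**Figure D2:**
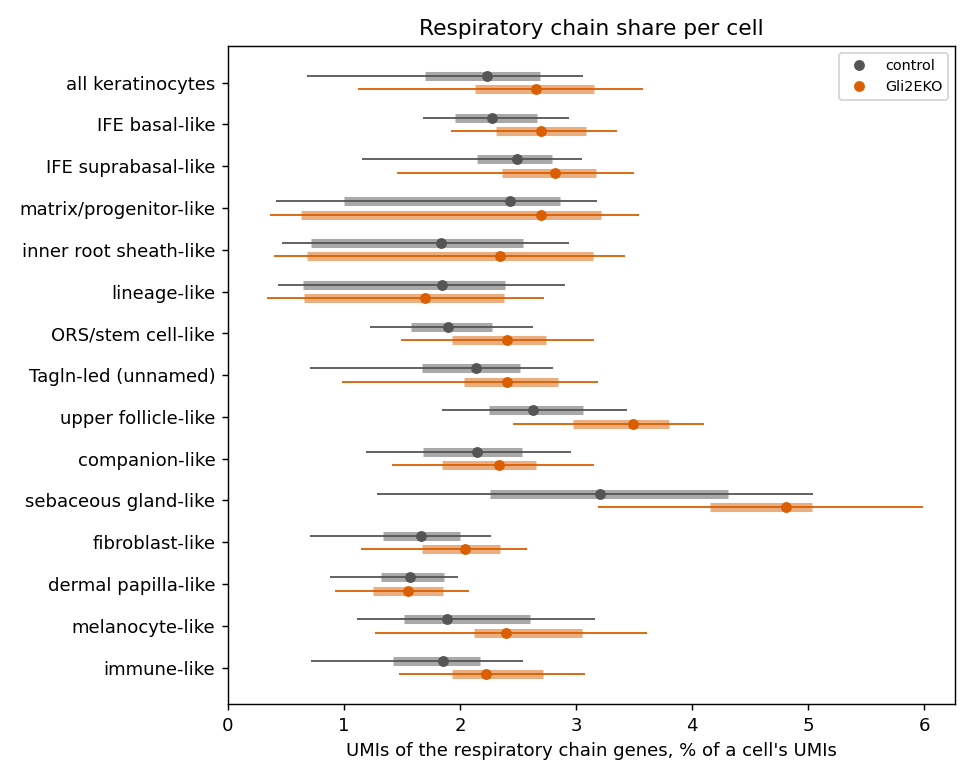
Share of each cell's UMIs that came from members (x axis, percent), by class, for control (grey) and Gli2EKO (orange) cells; circles are medians, thick bars run between the quartiles and thin lines between the 10th and 90th percentiles of cells. Gli2EKO medians are higher except in lineage-like cells (1.84% in control, 1.69% in Gli2EKO) and dermal papilla-like cells (1.57% and 1.55%).

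By complex, the medians over keratinocytes were 0.23 for complex I (39 members compared), 0.07 for complex II (8), 0.27 for complex III (9), 0.30 for complex IV (12) and 0.25 for ATP synthase (18). Complex II thus stood lowest, and 0 of its 8 members were past the fold. The figure covers its assembly factors, whose log2 ratios ran from -0.01 for Sdhaf3 and Sdhaf2 to 0.10 for Sdhaf4. Among the subunits, Sdhb, the iron-sulfur subunit, was at 189.1 CPM in control and 218.5 CPM in Gli2EKO keratinocytes (0.21 [0.16, 0.25]). Sdhc and Sdhd, which anchor the complex in the membrane, had log2 ratios of 0.19 and 0.22. Sdha, the flavoprotein that oxidizes succinate (chr13:74469359-74498436, minus strand, GRCm39), went the other way, from 75.2 to 65.7 CPM (-0.19 [-0.27, -0.12]), and was below 0 in 9 of the 10 keratinocyte classes.

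In complex I, 37 of 39 members compared were above 0 and 16 were past the fold higher. The core subunits of its matrix arm did not move alike. Ndufs8 was at 128.4 and 161.2 CPM (0.33 [0.27, 0.38]), Ndufs7 at 153.2 and 180.3 CPM (0.23), and Ndufs3, Ndufv1 and Ndufv2 had log2 ratios of 0.22, 0.21 and 0.19. Ndufs1, the largest core subunit (chr1:63182058-63216236, minus strand), was lower, at 60.9 CPM in control and 51.8 CPM in Gli2EKO keratinocytes (-0.23 [-0.32, -0.15]). It was below 0 in 7 of 10 keratinocyte classes and reached -0.68 [-1.16, -0.23] in sebaceous gland-like cells, on 118 and 60 UMIs.

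Among accessory subunits of complex I the largest log2 ratios, apart from Ndufa4l2, were those of Ndufb2 (112.8 and 147.3 CPM, 0.39), Ndufb10 (0.36) and Ndufa5 (0.35). Ndufa4, first described in complex I and now placed with complex IV, is counted here under complex I by its prefix. It was at 406.0 and 435.5 CPM (0.10). Its log2 ratio differed between classes, with 0.48 [0.31, 0.65] in outer root sheath/stem cell-like cells and -0.37 in suprabasal-like cells.

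All 9 members of complex III were above 0. Uqcrc1, a core protein of the complex (chr9:108765701-108778710, plus strand), stood at 266.5 CPM in control and 373.9 CPM in Gli2EKO keratinocytes (0.49 [0.45, 0.52]), the second highest log2 ratio of the set, and was above 0 in 10 of 10 keratinocyte classes. Its partner Uqcrc2 differed little, at 175.9 and 188.6 CPM (0.10). Cyc1, cytochrome c1, was at 220.1 and 271.8 CPM (0.30), the Rieske protein gene Uqcrfs1 at 149.5 and 170.3 CPM (0.19), and the small subunit Uqcr11 at 402.9 and 519.1 CPM (0.37). Part of the Uqcrc1 difference went with the mix of classes: with the Gli2EKO classes weighted to the control proportions its log2 ratio was 0.32.

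In complex IV, 12 of 12 members compared were above 0 and 9 were past the fold higher. Cox4i1, the usual form of subunit IV, was at 1063 and 1268 CPM (0.25 [0.24, 0.27]). Cox5a and Cox5b, which sit on the matrix side, had log2 ratios of 0.28 and 0.32, and Cox7b, at 444.6 and 579.8 CPM, had 0.38. In fibroblast-like cells Cox6c stood apart from the rest, at 744.8 CPM in control and 1201 CPM in Gli2EKO (0.69 [0.64, 0.74]), while in keratinocytes it was at 484.1 and 597.5 CPM (0.30).

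In ATP synthase 17 of 18 members were above 0. Atp5a1 (alpha subunit, 484.1 and 527.7 CPM, 0.12) and Atp5b (beta subunit, 741.4 and 843.7 CPM, 0.19) had smaller log2 ratios than Atp5d (delta subunit of the central stalk, 508.4 and 652.0 CPM, 0.36) and Atp5k (subunit e of the membrane part, 0.32). The c-ring protein is encoded by 3 genes. Of these, Atp5g1 was at 451.4 and 592.7 CPM (0.39), Atp5g3 at 269.8 and 301.5 CPM (0.16) and Atp5g2 at 17.5 and 16.2 CPM (-0.11 [-0.27, 0.05], but 0.03 under TMM factors). The second Atp5o identifier, annotated as a readthrough gene over the first, held 116 and 90 UMIs only.

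**Figure D3:**
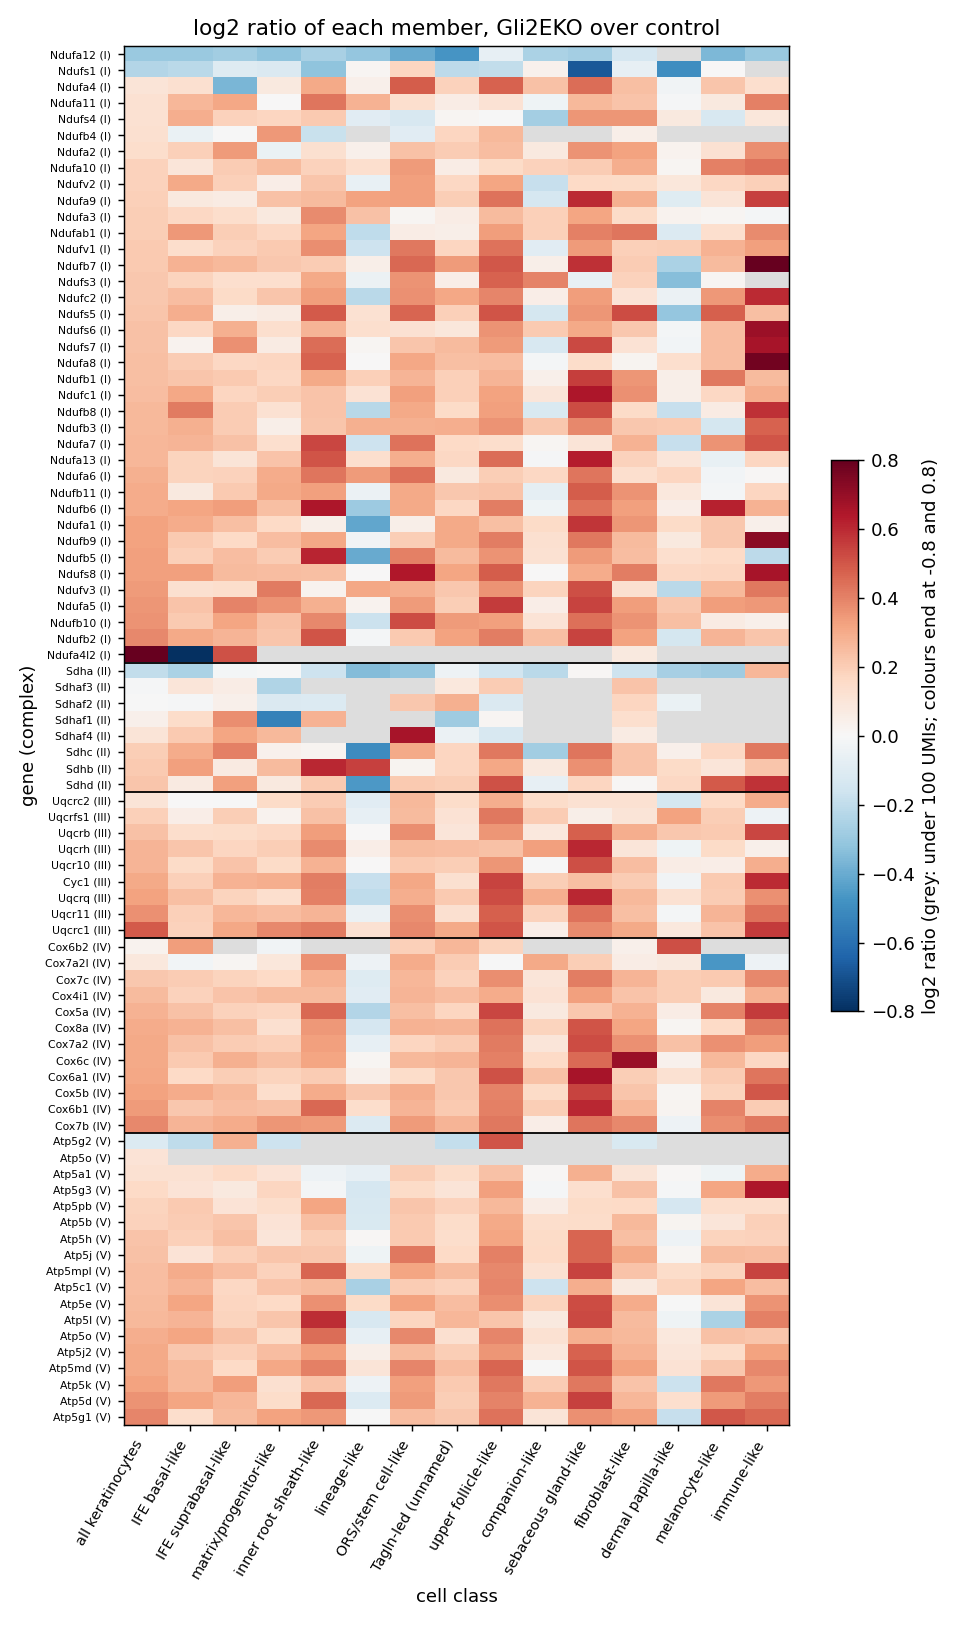
Log2 ratio (colour, red higher and blue lower in Gli2EKO) of 85 of the 86 members compared in keratinocytes, in rows grouped by complex, over all keratinocytes and the 14 classes in columns; grey cells had under 100 UMIs. Most of the map is red, with pale lineage-like, companion-like and dermal papilla-like columns and mostly blue rows for Ndufa12, Ndufs1 and Sdha.

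Over the 10 keratinocyte classes, 77 members could be compared in each. Of these, 24 were above 0 in all 10 classes and 60 in at least 9. Within single classes, 39.3% (inner root sheath-like) to 48.3% (lineage-like) of all genes were above 0. The count over classes was made for members only. Ndufs1, Ndufa12 and Sdha were the 3 of the 77 members that were above 0 in 5 classes or fewer. Of all genes compared, 33.1% were above 0 in keratinocytes and 49.8% in fibroblast-like cells, with no joint count made. Between all keratinocytes and fibroblast-like cells, 85 members could be compared in both, of which 79 were above 0 in both and 4 below 0 in both. Those 4 were Ndufa12, Ndufs1, Sdha and Atp5g2. Their fibroblast intervals included 0, with log2 ratios of -0.14, -0.06, -0.17 and -0.12. Under TMM factors Ndufa12, Ndufs1 and Sdha stayed below 0 in keratinocytes, at -0.16, -0.10 and -0.06. Both cell types come from the same pair of libraries.

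**Figure D4:**
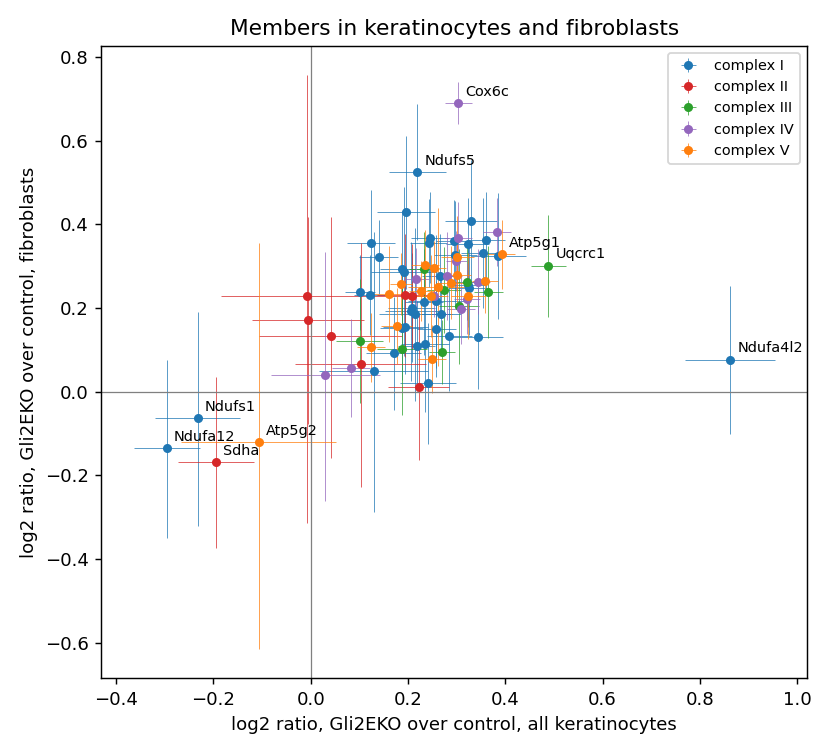
Log2 ratio of each member in all keratinocytes (x axis) against fibroblast-like cells (y axis), coloured by complex, with 95% counting intervals as lines. Most members lie in the upper right, Cox6c reaches 0.69 in fibroblasts, Ndufa4l2 0.86 in keratinocytes, and Ndufa12, Ndufs1, Sdha and Atp5g2 lie in the lower left.

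Ndufa12, an accessory subunit of complex I, was the only member past the fold lower in keratinocytes. It was at 102.7 CPM in control and 83.7 CPM in Gli2EKO keratinocytes (-0.30 [-0.36, -0.23]), and was below 0 in 10 of 10 keratinocyte classes and in fibroblast-, melanocyte- and immune-like cells. The gene lies at chr10:94034582-94057450 (GRCm39, plus strand). A processed pseudogene, Ndufa12-ps (chr5:130217236-130217637, plus strand), which the hyphen keeps out of the set, went strongly the opposite way. It held 140 UMIs in control and 934 in Gli2EKO keratinocytes, or 3.04 and 28.2 CPM (3.21 [2.96, 3.48]), and in fibroblast-like cells 7 and 114 UMIs, or 0.851 and 20.3 CPM.

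Gene and pseudogene are almost the same in sequence. The 402 bases of Ndufa12-ps align without gaps to coding positions 37 to 438 of Ndufa12, of 438 in all, and 400 bases are identical. They differ by A135G and T414C, with positions counted from 1 at the first base of the Ndufa12 coding sequence and the gene's base written first. The stretches around both sites are shown because these are the only bases by which a read within this region can be assigned to either copy; the differing base is in capitals, and the sequences run 5′ to 3′ from the GENCODE transcripts on GRCm39.
Ndufa12, coding positions 110 to 160: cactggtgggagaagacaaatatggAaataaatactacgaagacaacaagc
Ndufa12-ps, same stretch: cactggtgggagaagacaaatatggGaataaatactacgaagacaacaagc
Ndufa12, coding positions 389 to 438: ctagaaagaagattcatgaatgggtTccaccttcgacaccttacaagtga
Ndufa12-ps, same stretch: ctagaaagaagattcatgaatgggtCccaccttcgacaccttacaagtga

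The sum of both genes was 105.8 CPM in control and 111.8 CPM in Gli2EKO keratinocytes (0.08 [0.02, 0.14]). The pseudogene made up 2.87% of this sum in control and 25.2% in Gli2EKO. Among the 14 classes its share of the sum lay between 0.909% and 6.76% in control and between 16.9% and 31.3% in Gli2EKO, without overlap. The value of Ndufa12 alone is therefore uncertain, since reads could be split between the copies, and the cause of the split was not tested. The other hyphenated copies with at least 100 UMIs did not show this: Cox5b-ps held 141 and 128 UMIs, Ndufs5-ps 142 and 111, and Cox7c-ps1 342 and 309.

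**Figure D5:**
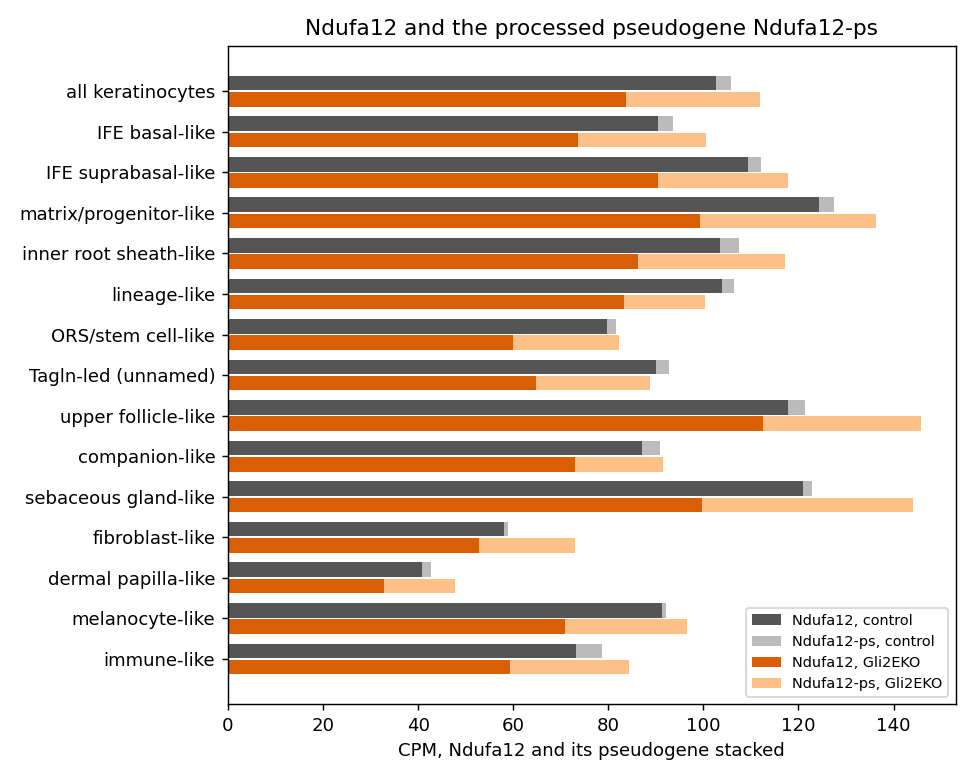
CPM of Ndufa12 (dark) with its pseudogene Ndufa12-ps stacked on it (pale) in each class, for control (grey) and Gli2EKO (orange). The dark bars are shorter in Gli2EKO in each class, and the pale part, up to 6.76% of the bar in control, is 16.9% to 31.3% of it in Gli2EKO.

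Several members are variants of a broadly used subunit, and their levels differed widely between cell classes. Ndufa4l2, a relative of Ndufa4 known to be induced by hypoxia, was found in the interfollicular epidermis, fibroblasts and mural cells. In basal-like cells it was at 118.0 CPM in control and 66.2 CPM in Gli2EKO (-0.83, on 709 and 566 UMIs). In suprabasal-like cells it was at 164.1 and 233.9 CPM (0.51 [0.39, 0.63]). Its log2 ratio over all keratinocytes, 0.86, came with the larger share of interfollicular cells in the Gli2EKO library, since it was 0.05 with classes weighted to the control proportions.

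Cox4i2, the variant of Cox4i1 known from lung and from oxygen sensing, was at 0.824 and 0.483 CPM in keratinocytes. In the 26 control and 20 Gli2EKO mural-like cells, the contractile cells of vessel walls, it stood at 416.6 and 651.8 CPM (0.65 [0.27, 1.02]), and Ndufa4l2 at 511.7 and 1001 CPM (0.97). These cells were too few to be counted among the classes. Cox4i2 was also present in dermal papilla-like cells, at 38.3 and 52.8 CPM, and in fibroblast-like cells, at 18.2 and 23.7 CPM.

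Cox6b2, known from testis, was at 51.9 and 62.3 CPM in the Tagln-led cells, at 68.4 CPM in control and 97.5 CPM in Gli2EKO dermal papilla-like cells (0.51 [0.10, 0.92]), and was at 33.1 and 33.8 CPM over all keratinocytes. The striated muscle variants Cox6a2 and Cox8b held 9 and 3 UMIs in control keratinocytes and 57 and 56 in Gli2EKO. Of the Gli2EKO UMIs, 46 of Cox6a2 and 54 of Cox8b sat in 2 cells that also held 2147 UMIs of the muscle actin Acta1, 1 among the outer root sheath/stem cell-like and 1 among the upper follicle-like cells.

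Below 100 UMIs in keratinocytes were 11 members. Besides Cox4i2, Cox6a2 and Cox8b these were Cox7a1 (43 and 37 UMIs), Cox6c2 (34 and 13), Ndufs6b (6 and 11), Ndufa11b (7 and 2) and Ndufb4c (1 and 0), and Ndufb11b, Cox7b2 and Cox8c at 0 in both libraries. For a gene at 0 in control keratinocytes, 3 UMIs would be 0.0650 CPM.

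Mitochondrially encoded subunits of the same complexes differed less over all keratinocytes. All mitochondrial transcripts together had a log2 ratio of -0.07 in keratinocytes and -0.00 in fibroblast-like cells. By class it was 0.18 in outer root sheath/stem cell-like cells, 0.14 in Tagln-led cells, 0.20 in companion-like, 0.17 in lineage-like and 0.23 in dermal papilla-like cells, and -0.21 in sebaceous gland-like and -0.29 in immune-like cells. Of the 13 mitochondrial subunit genes 12 could be compared in keratinocytes, with a median of 0.05. Of these, 2 were past the fold higher and 1 lower, against 10.7% and 34.1% of all genes. mt-Cytb of complex III was at 2469 and 2824 CPM (0.19) and mt-Co1 of complex IV at 1076 and 973.4 CPM (-0.14). The nuclear members of those complexes stood at medians of 0.27 and 0.30. A polyA assay does not capture mitochondrial transcripts evenly, so levels between these genes are not compared.

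Other nuclear genes of mitochondria differed less than the members in keratinocytes. Among all genes there, 10.7% were past the fold higher and 34.1% lower. Enzymes of the citrate cycle and pyruvate dehydrogenase had a median of 0.04, with 2 of 16 past the fold higher and 1 lower. Pdha1, the pyruvate dehydrogenase alpha subunit, was at 67.0 and 55.8 CPM (-0.26), and Idh3g at 67.4 and 88.1 CPM (0.39). The 42 assembly factors compared, which include the members Sdhaf1 to Sdhaf4, had a median of 0.05, with 5 higher and 2 lower. Carriers and import proteins had a median of 0.17 (1 of 17 higher, 0 lower) and mitochondrial ribosomal proteins of 0.14 (10 of 77 higher, 1 lower). Genes of cytochrome c and quinone synthesis had a median of 0.04, with 1 of 14 higher and 1 lower.

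Regulators of mitochondrial gene expression had a median of -0.10, near the -0.14 of all genes. Of the 18, 2 were past the fold higher and 5 lower, against 10.7% and 34.1% of all genes. Gabpa, an ETS factor known to bind promoters of respiratory chain genes, was at 37.4 and 27.4 CPM (-0.45 [-0.57, -0.33]), and Nrf1, the other classical factor of these promoters, at 74.1 and 61.2 CPM (-0.28 [-0.36, -0.20]). Esrra, an orphan nuclear receptor, was at 16.3 and 20.7 CPM (0.34).

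Glycolytic genes stood above the members. Of 19 genes compared, 15 were past the fold higher and 0 lower, with a median of 0.36, among them Gapdh (930.2 and 1302 CPM, 0.49), Aldoa (285.0 and 440.3 CPM, 0.63), Ldha (0.47) and the glucose transporter gene Slc2a1 (49.8 and 79.2 CPM, 0.67). In fibroblast-like cells this list had a median of 0.12, with 2 of 16 higher and 1 lower, against 15.5% and 17.8% of all genes. Cytosolic ribosomal proteins had a median of 0.15 in both keratinocytes and fibroblast-like cells, and proteasome subunits of 0.09 and 0.17.

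Upper follicle-like cells were higher in several of these lists at once, with medians of 0.34 for mitochondrial ribosomal proteins (56 of 77 past the fold higher), 0.33 for carriers and import, 0.38 for glycolysis, 0.24 for proteasome subunits, 0.22 for the citrate cycle and 0.26 for cell division genes. In lineage-like cells the medians were -0.15, -0.20, -0.24, 0.06, -0.01 and -0.53 in the same order. The dissociation stress list, genes that enzymatic digestion is known to induce, had a median of 0.10 in keratinocytes, 0.04 in fibroblast-like and -0.33 in dermal papilla-like cells. Of its 14 genes in keratinocytes, 4 were past the fold higher and 2 lower, against 10.7% and 34.1% of all genes. Malat1, a nuclear RNA, was at 11096 and 12812 CPM in keratinocytes and 14109 and 18374 CPM in fibroblast-like cells. Over all keratinocytes, 53 of 85 members were past the fold higher with each cell thinned to 5000 UMIs, and 26 of 86 with the Gli2EKO classes weighted to the control proportions. The share of all genes past the fold changes with the setting and is not given for these counts, so they stand without a background. The part of Malat1 and the stress genes in the members' difference was not tested.

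Short letter patterns that factors of these genes are known to bind were present in the promoters of some members. RefSeq promoters (GRCm38.p6, 250 bases before to 50 after a start site) were matched by symbol for 74 of the 96, and 35 of the 74 held at least 1 of the 3 patterns searched. On either strand, GCATGCGC (the core bound by NRF1) was found in 10 of them, or 13.5%, against 3.05% of the 27025 genes with a promoter. CCGGAAG (an ETS core, bound by GABPA among others) was found in 20, or 27.0%, against 9.93%, and AAGATGG (the YY1 core) in 11, or 14.9%, against 7.28%. The ETS and YY1 cores can share the letters AAG, and a match is not a shown binding site.

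Members with and without a match had similar log2 ratios in keratinocytes. The medians were 0.27 with and 0.24 without the NRF1 core, 0.26 and 0.24 for the ETS core, and 0.23 and 0.26 for the YY1 core. Of the promoters, 5 are given as examples of how the cores sit before the start site. Each shows 120 bases ending at the start site, 5′ to 3′ on the gene's strand, with the cores found in the stretch in capitals. They are those of Atp5k (chr5:108434400-108434519, minus strand), Ndufa6 (chr15:82354292-82354411, minus), Cox6b1 (chr7:30626115-30626234, minus), Uqcr11 (chr10:80406822-80406941, minus) and Atp5j (chr16:84834977-84835096, minus), all on GRCm38.p6.
Atp5k: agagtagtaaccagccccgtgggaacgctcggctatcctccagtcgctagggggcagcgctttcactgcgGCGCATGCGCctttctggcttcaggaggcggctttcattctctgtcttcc
Ndufa6: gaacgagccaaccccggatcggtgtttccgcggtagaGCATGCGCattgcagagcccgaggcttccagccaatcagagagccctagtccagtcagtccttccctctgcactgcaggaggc
Cox6b1: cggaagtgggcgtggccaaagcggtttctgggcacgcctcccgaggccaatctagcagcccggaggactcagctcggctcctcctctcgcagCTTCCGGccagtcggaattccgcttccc
Uqcr11: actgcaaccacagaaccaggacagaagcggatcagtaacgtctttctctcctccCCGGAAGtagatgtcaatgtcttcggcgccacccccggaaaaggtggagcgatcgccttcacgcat
Atp5j: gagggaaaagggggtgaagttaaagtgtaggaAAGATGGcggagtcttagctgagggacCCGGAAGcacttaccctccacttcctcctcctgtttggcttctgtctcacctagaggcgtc
In keratinocytes these 5 genes had log2 ratios of 0.32 (Atp5k), 0.29 (Ndufa6), 0.34 (Cox6b1), 0.37 (Uqcr11) and 0.24 (Atp5j). They do not stand for all members with a core. Atp5g2, with the NRF1 core, had -0.11, and Sdhaf2 and Sdhaf3, with the ETS core, had -0.01 each. Atp5k holds the NRF1 core on both strands in an overlapping run of letters.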

How the data were processed

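Single-cell RNA from polyA ends was measured with 10x 3′ v4 chemistry in 1 control and 1 Gli2EKO library. The authors aligned the reads with Cell Ranger 9.0.1 to GRCm39, per the labels, and deposited filtered matrices of UMI counts without normalization (control 71021773 UMIs in 6326 barcodes, Gli2EKO 48866478 in 4296).

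Here, cells with over 1000 and under 8000 genes and under 15% mitochondrial UMIs were kept. The automatic Scrublet threshold (scanpy 1.11.5) marked 5 Gli2EKO and 261 control cells, so the 8% with the highest score per library was removed. Clustering used Seurat 5.3.0 under R 4.3.3 at resolution 0.5 with a Harmony-type integration written anew, and classes were named from marker lists, so they may differ from the study's; mural, Schwann and endothelial cells were too few to compare, and the doublet caller of the study was not run. UMIs were summed per class; ratios had 0.5 UMIs added; intervals were exact Poisson and conditional binomial. Scripts were tested on simulated data. Named members were core subunits, isoforms, and the 5 largest and smallest ratios; Ndufa4, Malat1, Acta1 and genes named in single classes were chosen after their values were seen. The members and lists were chosen with earlier results of these data known. The cell division, dissociation and sex lists were described as lists; both libraries had Y-linked transcripts and almost no Xist, and the sex list had a median of -0.21 in keratinocytes. Alternatives are given in the closing section, with TMM factors from edgeR 4.0.16. RefSeq promoters of Atp5a1, Atp5mpl, Cox4i1, Cox4i2, Cox6a2, Cox6c, Cox6c2, Cox8c, Cyc1, Ndufa11b, Ndufa2, Ndufa4l2, Ndufb11b, Ndufb4c, Ndufb9, Ndufs1, Ndufs6b, Sdhc, Uqcrb, Uqcrc2 and Uqcrq were not matched, and 1 member gene is not reported here by name.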

Additional observations from a re-analysis of the deposited data

Results flagged for a closer look

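Ndufa12-ps, which the hyphen left out of the set, was higher in Gli2EKO keratinocytes by a log2 ratio of 3.21, on 140 and 934 UMIs.

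For 8 members, log2 ratios were past the fold in opposite directions in 2 classes, each with a counting interval on its own side of 0. How many of all genes do so was not counted. The differences between the highest and the lowest log2 ratio were not tested. Ndufa4l2 differed by 1.34 between suprabasal-like (0.51) and basal-like (-0.83) interfollicular cells. Against lineage-like cells, Ndufb5 differed by 1.01 (inner root sheath-like), Ndufa1 by 0.99 and Sdhc by 0.93 (sebaceous gland-like), and Atp5c1 by 0.65 (upper follicle-like). Sdhaf1 differed by 0.92 between suprabasal-like and matrix/progenitor-like cells, Ndufa4 by 0.85 between outer root sheath/stem cell-like and suprabasal-like cells, and Cox7a2l by 0.83 between inner root sheath-like and melanocyte-like cells.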

How the results depend on the processing

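Under TMM factors, which moved the median of all keratinocyte genes from -0.14 to -0.00, the members' median in keratinocytes was 0.37 and 73 members were past the fold higher. In keratinocytes with no UMI of 5 division genes the median was 0.31. Over 15 other settings the keratinocyte median lay between 0.22 and 0.37, and in fibroblast-like cells over 13 settings between 0.22 and 0.27. The medians stayed above 0 under each setting run in the classes other than lineage-like cells, above 0 under 2 of 12 settings, and dermal papilla-like cells, above 0 under 11 of 12. Of 607 values recomputed, 562 stayed within the limit set for them and 45 moved further. The limit was a counting interval for log2 ratios and a fixed ratio for counts. For class medians and summed levels it was the typical interval of a single member in that class. In keratinocytes this was ±0.04, wider than the interval of the summed level itself (0.255 to 0.263). In lineage-like cells it was ±0.28, which takes in the whole range of the median, from -0.09 to 0.11. The count of 562 therefore does not show that medians and summed levels were stable. Only log2 ratios at least 0.25 in size could be counted as changing sign, and 0 of them did. Smaller medians, such as that of lineage-like cells, were outside that count. Weighting the Gli2EKO classes to control proportions left 26 members past the fold higher in keratinocytes, a count given without the share of all genes. It took Ndufa4l2 from 0.86 to 0.05 and Uqcrc1 from 0.49 to 0.32. The minimums of 2000 and 10000 UMIs and the removal of cells rich in Acta1 or poor in ribosomal protein UMIs were chosen after seeing the data. Settings that left under 20 members gave no value: the minimum of 2000 UMIs in 8 small classes, and cells without division genes in matrix/progenitor-like and immune-like cells. No replicate could be left out and no paired analysis was possible because each genotype has 1 library. Depth limits single members most in the small classes, with typical intervals of ±0.30 in immune-like, ±0.29 in dermal papilla-like and ±0.28 in lineage-like cells.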
